A study of Mus musculus with 2 samples.

Results

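The genes described here encode the nuclear-encoded subunits of respiratory chain complexes II, III and IV, the electron carrier cytochrome c, and ATP synthase (complex V). They were chosen by symbol: Sdha to Sdhd, Cyc1, Cycs and every gene whose symbol starts with Uqcr, Cox4 to Cox8 or Atp5, without pseudogenes and with at least 20 UMIs (unique transcript tags) over both libraries. Of 49 such symbols among the 32285 genes in the files, 44 qualified. They are 4 genes of complex II, 9 of complex III, 13 of complex IV, 17 of complex V and cytochrome c. The 5 that fell short were Cox4i2 with 15 UMIs over both libraries, Cox8b with 3, Cox6a2 with 2, and Cox7b2 and Cox8c with 0. The rule uses symbols and total counts and no measured difference between genotypes, though earlier results of these data were known when it was chosen.

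The data are single-nucleus RNA counts from the colon of male C57BL/6 mice aged 15 weeks, of 2 genotypes: Pink1 knockout and wild type. Each genotype was 1 library made from sorted nuclei of 3 pooled mice, so there is no replicate and no test between genotypes. The labels give batch 2 for the knockout and batch 1 for the wild-type library, so genotype, pool and batch cannot be told apart. The labels give no deleted exon and no further allele or agent. The knockout library had 22446326 UMIs over 12230 barcodes, and 10966 nuclei were kept, with a median of 1571 UMIs. The wild-type library had 16997995 UMIs over 8924 barcodes, and 8256 nuclei were kept, with a median of 1624.5 UMIs. The libraries shared 28 barcodes. All ratios are knockout over wild-type library. The ranges in parentheses are exact 95% intervals that cover counting error only, not variation between nuclei or between mice.

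The respiratory chain passes electrons from nutrients to oxygen and uses their energy to pump protons across the inner mitochondrial membrane. Complex II (succinate dehydrogenase) feeds electrons from the citrate cycle, complex III passes them to cytochrome c, complex IV hands them to oxygen, and ATP synthase makes ATP as protons flow back. In the colon the differentiated surface epithelium relies on this chain to burn butyrate. PINK1 is a kinase that accumulates on damaged mitochondria and recruits the ubiquitin ligase parkin, which marks them for removal. The transcripts described here are made in the nucleus and translated in the cytosol, and nuclei preparations hold them partly as RNA attached to or carried along with the nucleus.

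Pink1 itself (ENSMUSG00000028756) had 113 counts, or 6.1 CPM (counts scaled to 1000000 UMIs of nuclear-encoded genes), in the knockout library and 171 counts, or 11.3 CPM, in the wild-type library. Its ratio was 0.537 (0.420 to 0.686). Since the labels do not say which part was deleted, tags from elsewhere in the transcript would be no check of genotype. Named classes of nuclei carried their markers in both libraries: all 10 goblet markers and 11 of 12 colonocyte markers were at least 2-fold above the other nuclei in each. Mitochondrially encoded RNA, which lies outside the nucleus, made up 0.525% of UMIs in knockout and 0.270% in wild-type nuclei, a ratio of 1.95 (1.92 to 1.97). That difference moved with several results below, and its values are given beside them.

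Over all nuclei the 44 genes together stood modestly higher in the knockout library. They summed to 58600 counts or 3161 CPM in knockout nuclei and 39607 counts or 2627 CPM in wild-type nuclei, a ratio of 1.20 (1.19 to 1.22). Of the 44, 37 had a ratio above 1, 30 had an interval wholly above 1 and 2 an interval wholly below 1. Their median log2 ratio was 0.26, beside −0.02 for all 16563 genes with 20 counts. Only 3 of the 44 were at least 1.5-fold higher and 0 were at least 1.5-fold lower, where 6.51% of all such genes were that much higher and 8.07% that much lower. The count at least 1.5-fold higher was thus near the background share, while none was that much lower. That background holds genes with as few as 20 counts, so the shares differ in counting error. By gene, the higher sum came from many small differences. By nucleus it was uneven. Nuclei above 1% mitochondrial UMIs, 5.75% of knockout and 3.66% of wild-type nuclei, held 26.7% and 15.1% of the summed counts. In nuclei with at most 1% the ratio was 1.08 (1.06 to 1.09). The sum depended on which nuclei were taken. It was 1.07 with a stricter filter that also removed nuclei above 2% mitochondrial UMIs, and 1.09 (1.05 to 1.13) in nuclei without any mitochondrial UMI.

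**Figure D1:**
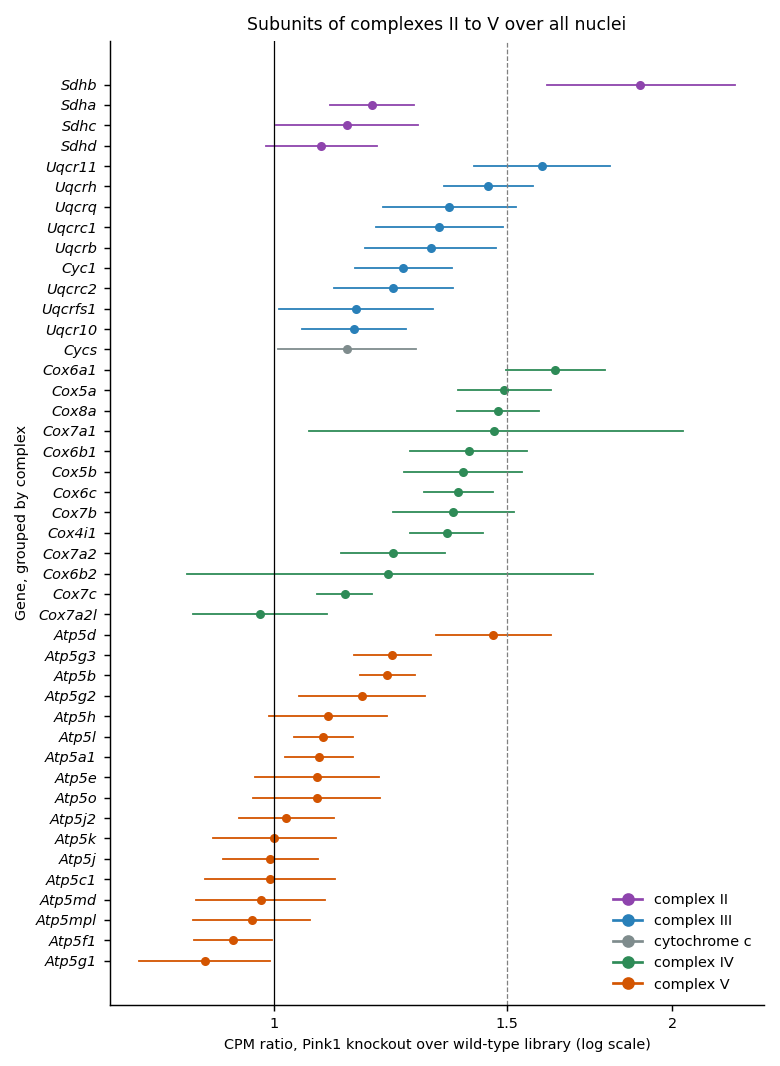
Ratio of each of the 44 genes over all nuclei, Pink1 knockout over wild-type library, on a log axis, with exact 95% intervals for counting error and colours by complex. Complexes III and IV lie mostly right of 1, with Sdhb at 1.89, while most of complex V lies close to 1 and Atp5g1 is lowest at 0.887.

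The complexes differed in size of ratio. Complex IV summed to 1082 CPM in knockout and 817 CPM in wild-type nuclei, a ratio of 1.32 (1.29 to 1.35). Complex III had 493 CPM in knockout and 376 CPM in wild-type nuclei, a ratio of 1.31 (1.27 to 1.36). Complex II had a ratio of 1.21 (1.15 to 1.27), and ATP synthase the lowest at 1.09 (1.07 to 1.11), with 1342 CPM in knockout and 1230 CPM in wild-type nuclei. The intervals of complexes III and IV lay above those of ATP synthase, but with 1 library per genotype the gap has no replicate check.

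In complex II, Sdhb stood apart from its partners. Sdhb, the iron-sulfur subunit that carries electrons from the flavin towards ubiquinone, had 500 counts or 27 CPM in knockout and 215 counts or 14.3 CPM in wild-type nuclei. Its ratio of 1.89 (1.61 to 2.23) was the highest of the 44. Sdha, the flavin-bearing subunit that oxidises succinate, had 95.9 CPM in knockout and 80.9 CPM in wild-type nuclei, a ratio of 1.19 (1.10 to 1.28). The membrane anchors were closer to 1, with Sdhc at 1.14 (1.00 to 1.29) and Sdhd at 1.09 (0.986 to 1.20). The 4 subunits are needed in equal numbers in the finished complex, and the interval of Sdhb overlapped with none of the other three.

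Sdhb was also higher wherever it could be measured. In the 6 classes or clusters with at least 50 Sdhb counts its ratio ran from 1.57 to 2.62, and the interval was above 1 in all 6. In colonocyte-like nuclei it had 98 counts or 31.2 CPM in knockout and 32 counts or 15.2 CPM in wild-type nuclei, a ratio of 2.05 (1.36 to 3.16). In crypt base and proliferating-like nuclei it had 76 counts or 21.4 CPM in knockout and 45 counts or 13.6 CPM in wild-type nuclei, a ratio of 1.57 (1.07 to 2.33). Sdhb kept its ratio in nuclei with little mitochondrial RNA, as some but not all of the others did. In nuclei with at most 1% mitochondrial UMIs the Sdhb ratio was 1.90 (1.60 to 2.27), and it was at least 1.64 under every alternative tried. In nuclei without a mitochondrial UMI, Cox5a was at 1.59 (1.49 over all nuclei), Cox7b at 1.45 (1.37), Uqcrh at 1.42 (1.45) and Cox4i1 at 1.35 (1.35). Cox6a1 was at 1.39 there (1.63) and Uqcr11 at 0.997 (1.59).

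Sdhb lies on the chromosome of the targeted gene. In GRCm38 it spans chromosome 4 from 140961203 to 140979193 on the plus strand, 2.65 Mb from Pink1, which spans 138313409 to 138326307. Of the 147 genes with 20 counts within 5 Mb of Pink1, 14 (9.52%) were at least 1.5-fold higher, beside 6.51% of all genes. At least 1.5-fold lower were 11 (7.48%), beside 8.07% of all genes. Sdhb ranked 7th from the top. The median log2 ratio of these 147 genes was 0.07, beside −0.02 for all genes. Uqcrh is the only other of the 44 genes on that chromosome, 22.2 Mb away. The origin of the targeted chromosome is not given in the labels, and its part in the Sdhb ratio was not tested.

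Complex III was higher in all 9 of its genes, each with an interval above 1. The core and catalytic subunits summed to a ratio of 1.25 (1.19 to 1.32). Among them, cytochrome c1 (Cyc1), which hands electrons to cytochrome c, had 76.4 CPM in knockout and 61.0 CPM in wild-type nuclei, a ratio of 1.25 (1.15 to 1.36). The core proteins Uqcrc1 and Uqcrc2 had ratios of 1.33 (1.19 to 1.49) and 1.23 (1.11 to 1.37). The Rieske iron-sulfur protein Uqcrfs1 was nearer to 1, at 1.15 (1.01 to 1.32), and was 0.971 with the stricter filter. The small subunits summed to 1.36 (1.30 to 1.42). Uqcr11 led them with 837 counts or 45.1 CPM in knockout and 427 counts or 28.3 CPM in wild-type nuclei, a ratio of 1.59 (1.42 to 1.80). Uqcrh, the hinge protein that binds cytochrome c1, had 98.5 CPM in knockout and 67.9 CPM in wild-type nuclei, a ratio of 1.45 (1.34 to 1.57). Uqcrq, Uqcrb and Uqcr10 had ratios of 1.36, 1.31 and 1.15. Cytochrome c (Cycs), the mobile carrier between complexes III and IV, had 35.2 CPM in knockout and 31.0 CPM in wild-type nuclei, a ratio of 1.14 (1.01 to 1.28).

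In complex IV, 12 of 13 genes had ratios above 1 and 11 had intervals above 1. The catalytic subunits of this complex are mitochondrially encoded, and the nuclear-encoded ones surround and regulate them. Cox6a1 was highest, with 1611 counts or 86.9 CPM in knockout and 803 counts or 53.3 CPM in wild-type nuclei, a ratio of 1.63 (1.5 to 1.78). Cox5a, an early assembly subunit, had 92.5 CPM in knockout and 61.9 CPM in wild-type nuclei, a ratio of 1.49 (1.38 to 1.62). Its partner Cox4i1, the largest nuclear-encoded subunit, had 2529 counts in knockout and 1523 counts in wild-type nuclei, a ratio of 1.35 (1.27 to 1.44). Cox5b, which binds zinc, had a ratio of 1.39 (1.25 to 1.54), Cox8a one of 1.48 (1.38 to 1.59), Cox6b1 one of 1.40, Cox6c one of 1.38 and Cox7b one of 1.37. Cox7a2 and Cox7c were lower in the order, at 1.23 and 1.13. Cox7a2l was the exception, with 34.5 CPM in knockout and 35.4 CPM in wild-type nuclei and a ratio of 0.977 (0.869 to 1.10). Ratios were smaller with the stricter filter. Cox8a was then at 1.05, Cox4i1 at 1.06, Cox6b1 at 1.10, Cox7b at 1.12, Cox5b and Cox6c at 1.21, Cox6a1 at 1.28 and Cox5a at 1.30. Without a mitochondrial UMI, Cox5b was at 1.03, Cox6b1 at 1.11, Cox8a at 1.16 and Cox6c at 1.22. Cox4i1, Cox7b and Cox5a were at 1.35, 1.45 and 1.59 in the same nuclei.

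The tissue-specific isoforms of complex IV had few counts. The muscle or heart forms Cox6a2 and Cox8b and the lung form Cox4i2 were among the genes with too few UMIs. Cox7a1, the heart and skeletal muscle isoform of Cox7a2, had 110 counts in knockout and 61 in wild-type nuclei, a ratio of 1.47 (1.06 to 2.04). Most of its counts lay in 3 groups: colonocyte-like nuclei had 37 counts in knockout and 15 in wild-type, cluster 0 had 28 in knockout and 13 in wild-type, and goblet-like nuclei had 22 in knockout and 14 in wild-type, while smooth muscle-like nuclei had 0 in both libraries. In smooth muscle-like nuclei the exact Poisson interval of a count of 0 reaches 4.88 CPM in knockout and 8.33 CPM in wild-type nuclei. Cox6b2, known as the testis isoform of Cox6b1, had 84 counts in knockout and 56 in wild-type nuclei and a ratio of 1.22 (0.860 to 1.74), with 31 of the knockout and 20 of the wild-type counts in crypt base and proliferating-like nuclei.

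ATP synthase was divided. Of its 17 genes, 11 had ratios above 1, 6 had intervals above 1 and 2 had intervals below 1. In the catalytic F1 head, which sums to a ratio of 1.17 (1.13 to 1.21), the central stalk subunit Atp5d was highest, with 59.2 CPM in knockout and 40.4 CPM in wild-type nuclei and a ratio of 1.46 (1.33 to 1.62). The catalytic beta subunit Atp5b had 233.6 CPM in knockout and 191.7 CPM in wild-type nuclei, a ratio of 1.22 (1.16 to 1.28). Its partner alpha, Atp5a1, was at 1.08 (1.02 to 1.15), the central stalk gamma subunit Atp5c1 at 0.993 (0.887 to 1.11) and Atp5e at 1.08. The peripheral stalk, which holds the head still, summed to 0.999 (0.957 to 1.04). One of its genes, Atp5f1, had 96.9 CPM in knockout and 104.0 CPM in wild-type nuclei, a ratio of 0.932 (0.870 to 0.997). Atp5j, Atp5h and Atp5o lay between 0.994 and 1.10. The supernumerary membrane subunits Atp5l, Atp5j2, Atp5k, Atp5md and Atp5mpl summed to 1.04 (1.00 to 1.08), with Atp5mpl lowest at 0.962 (0.869 to 1.07).

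The c ring, the rotor that protons turn, is encoded by 3 genes whose mature products are the same protein. Atp5g3 had 118.9 CPM in knockout and 96.8 CPM in wild-type nuclei, a ratio of 1.23 (1.15 to 1.31), and Atp5g2 had 43.0 CPM in knockout and 36.9 CPM in wild-type nuclei, a ratio of 1.17 (1.04 to 1.30). Atp5g1 went the other way, with 640 counts or 34.5 CPM in knockout and 587 counts or 38.9 CPM in wild-type nuclei, a ratio of 0.887 (0.791 to 0.993). It was the lowest of the 44. In nuclei with at most 1% mitochondrial UMIs the Atp5g1 ratio was 0.744 (0.655 to 0.845), and in the 631 knockout and 302 wild-type nuclei above 1% it was 1.33 (0.991 to 1.81). By class it ran from 0.689 in cluster 1 to 1.38 in colonocyte-like nuclei.

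Upstream sequences are shown for the 3 genes that were at least 1.5-fold higher and for the lowest gene, because the 44 genes moved mostly the same way and respiratory genes are known targets of the factors NRF1, GABP (an ETS factor) and YY1. They are the 250 bases before the RefSeq gene start (GRCm38.p6), 5′ to 3′ on the gene's strand, with matches to GCATGCGC (the NRF1 core) or CCGGAAG (ETS), on either strand, in capitals. The regions are chr4:140961021-140961270 (plus strand) for Sdhb, chr5:115348959-115349208 (minus) for Cox6a1, chr10:80406822-80407071 (minus) for Uqcr11 and chr11:96075632-96075881 (minus) for Atp5g1.
Sdhb: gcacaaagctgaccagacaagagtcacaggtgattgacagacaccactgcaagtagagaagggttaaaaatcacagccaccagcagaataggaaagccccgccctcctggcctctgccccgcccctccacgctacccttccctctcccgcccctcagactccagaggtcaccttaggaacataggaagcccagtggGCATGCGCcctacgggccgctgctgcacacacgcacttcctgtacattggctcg
Cox6a1: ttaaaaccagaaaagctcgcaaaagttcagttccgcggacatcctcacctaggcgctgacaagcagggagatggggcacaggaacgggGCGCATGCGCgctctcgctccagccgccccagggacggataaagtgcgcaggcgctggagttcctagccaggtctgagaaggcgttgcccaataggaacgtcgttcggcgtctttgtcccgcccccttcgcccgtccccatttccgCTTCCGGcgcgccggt
Uqcr11: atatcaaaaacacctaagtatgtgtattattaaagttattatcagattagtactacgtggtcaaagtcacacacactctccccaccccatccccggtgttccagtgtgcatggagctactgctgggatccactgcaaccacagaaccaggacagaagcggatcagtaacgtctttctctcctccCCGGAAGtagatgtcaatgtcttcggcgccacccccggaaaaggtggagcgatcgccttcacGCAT
Atp5g1: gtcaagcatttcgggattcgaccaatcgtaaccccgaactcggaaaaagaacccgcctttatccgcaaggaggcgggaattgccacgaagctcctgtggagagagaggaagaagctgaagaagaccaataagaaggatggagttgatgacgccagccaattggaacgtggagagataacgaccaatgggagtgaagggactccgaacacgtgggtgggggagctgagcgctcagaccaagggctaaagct
The search covered the 300 bases from 250 before to 50 after the start, on both strands, and found 35 of the 44 genes in the table. The windows of Sdhb, Cox6a1 and Uqcr11 each held both sets of letters. In Sdhb the ETS match lies after the start and in Uqcr11 the NRF1 match runs across it, so the print shows neither in full. The window of Atp5g1 held none of the searched letters. Both sets were held by 5 of the 35 genes (Atp5k, Atp5l, Cox6a1, Sdhb and Uqcr11), and by 1.24% of the 11495 measured genes with a window. The NRF1 core was in 8 of 35 (22.9%), against 5.43% of measured genes and 3.05% of all 27025 genes in the table. CCGGAAG was in 13 of 35 (37.1%), against 18.3% of measured and 9.93% of all genes, and AAGATGGC (YY1) in 3 of 35 (8.57%), against 4.84% and 3.19%.

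Ratios overlapped between genes with and without the NRF1 core or the ETS letters. The 8 genes with the NRF1 core had a median ratio of 1.25 and a range of 1.00 to 1.89, and the 27 without it a median of 1.15 and a range of 0.887 to 1.49. The 13 with the ETS letters had a median of 1.10 and the 22 without them 1.18. The 3 genes with the YY1 letters, Atp5f1, Atp5j and Atp5j2, lay lower, with a median of 0.994 and a range of 0.932 to 1.02, against a median of 1.20 and a range of 0.887 to 1.89 for the 32 without them. All 3 are ATP synthase genes. Atp5k and Atp5l, which hold both the NRF1 and the ETS letters, had ratios of 1.00 and 1.09. These matches describe letters in a window and say nothing of binding.

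The 44 genes were higher in the knockout library in unnamed clusters 0 and 2 and in the colonocyte-like and goblet-like classes. The amount changed with the filter and the grouping of nuclei. Nuclei were grouped into 30 clusters, none of whose 2000 defining variable genes was among the 44. Marker classes, called by the cell type they resemble, and clusters that met no marker rule were compared where each library had at least 100 nuclei. Cluster 0, led by Gk and the gasdermin gene Gsdmc3, had 5347 CPM of the 44 genes in knockout and 3502 CPM in wild-type nuclei, a ratio of 1.53 (1.48 to 1.57), which was 1.07 with a looser and 1.08 with the stricter filter. Colonocyte-like nuclei, the absorptive surface cells, had 3916 CPM in knockout and 3025 CPM in wild-type nuclei, a ratio of 1.29 (1.26 to 1.33). It became 1.49 under the looser filter and 1.13 under the stricter one. The looser filter could add few nuclei, since 12146 of 12230 knockout and 8888 of 8924 wild-type barcodes passed the main one. A class or cluster need not hold the same nuclei under another filter, so these ratios are not of a fixed set. Goblet-like nuclei, the mucus-secreting cells, had 2766 CPM in knockout and 2228 CPM in wild-type nuclei, a ratio of 1.24 (1.19 to 1.29). Cluster 2, led by Apol10a, Dmbt1 and Aqp4, had 4106 CPM in knockout and 3301 CPM in wild-type nuclei, also a ratio of 1.24 (1.19 to 1.30).

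The other compared classes ran from 0.844 to 1.10. Intervals lay above 1 in cluster 1 and in crypt base and proliferating-like nuclei. The division of classes changed with the filter. Under the stricter one, cluster 1 was at 1.08 and cluster 14 at 1.11, beside 1.08 in cluster 0 and 1.10 in goblet-like nuclei. Colonocyte-like nuclei and cluster 2 were higher there, at 1.13 and 1.22. With the main filter, some classes with under 100 nuclei in a library, which were not compared, lay further from 1. B-like nuclei were at 1.54 (1.22 to 1.94), tuft-like at 1.40 (1.11 to 1.775) and enteroendocrine-like at 1.15 (1.00 to 1.32). Enteric neuron-like nuclei were at 0.796 (0.645 to 0.981) and lymphatic endothelium-like nuclei at 0.830 (0.708 to 0.973). Crypt base and proliferating-like nuclei had 3094 CPM in knockout and 2897 CPM in wild-type nuclei, a ratio of 1.07 (1.04 to 1.10). Cluster 1, led by Plet1 and Etv5, was at 1.10 (1.05 to 1.16), and cluster 14, led by Mirg, Rian and Meg3, at 1.09 (0.998 to 1.19). Both clusters carried the goblet mucin Muc2: after thinning to 500 UMIs it was found in 99.4% of knockout and 99.2% of wild-type nuclei of cluster 1, and in 100% of knockout and 99.6% of wild-type nuclei of cluster 14. In colonocyte-like nuclei, which should lack it, the share was 17.7% in knockout and 20.5% in wild-type nuclei (47.7% and 53.8% before thinning, at medians of 1632 UMIs in knockout and 1769 UMIs in wild-type nuclei). In cluster 1 it was 99.8% in knockout and 99.9% in wild-type nuclei before thinning, at medians of 1839 and 1925 UMIs. Among muscle, stromal and immune nuclei, smooth muscle-like nuclei had 1467 CPM in knockout and 1573 CPM in wild-type nuclei, a ratio of 0.932 (0.847 to 1.03). Cluster 11, led by the fibroblast gene Dcn, was at 0.962 (0.872 to 1.06). Cluster 16, led by Pdgfra and Bmp5, was lower at 0.857 (0.761 to 0.966). The ratio for macrophage and dendritic-like nuclei was 0.844 (0.739 to 0.965). The last pair did not hold their direction: without doublet removal they were 1.08 and 1.01, and in nuclei without a mitochondrial UMI 1.21 and 1.34.

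**Figure D2:**
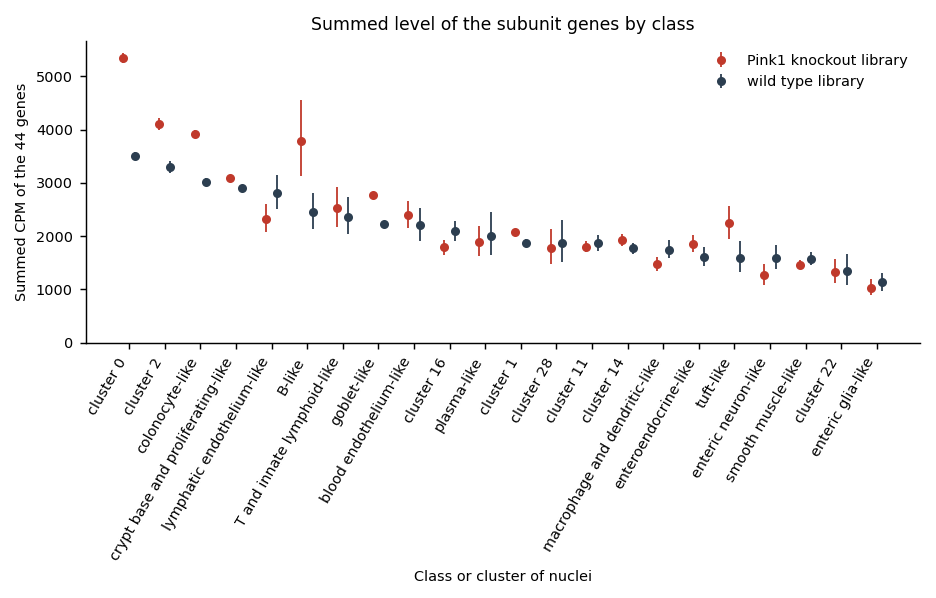
Summed level of the 44 genes, in CPM, in each class or cluster with at least 30 nuclei per library, ordered by the wild-type level, with exact Poisson 95% intervals. Cluster 0, cluster 2 and colonocyte-like nuclei are highest in both libraries, at 5347, 4106 and 3916 CPM in the knockout and 3502, 3301 and 3025 CPM in the wild-type library, and enteric glia-like nuclei are lowest.

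The order of the levels was much alike in both libraries. Over 22 classes and clusters the summed levels of the knockout and wild-type libraries had a Spearman correlation of 0.901 and a Pearson correlation of 0.907, over points that share a library on each side. Enteric glia-like nuclei were lowest, at 1035 CPM in knockout and 1130 CPM in wild-type nuclei. Cluster 0 stood above cluster 2, and cluster 2 above colonocyte-like nuclei, beyond counting error in both libraries. Below these, neighbours in each library's order had overlapping intervals, except crypt base and proliferating-like over goblet-like nuclei in the knockout library. Across the same 22 the summed level went with that of the nuclear-encoded complex I subunits, at a Spearman correlation of 0.920 in the knockout and 0.806 in the wild-type library. With the cytosolic ribosomal protein genes the correlation was 0.711 in the knockout and 0.562 in the wild-type library, and with the mitochondrial share 0.610 in the knockout and 0.470 in the wild-type library. With the median UMI count it was 0.0412 in the knockout and −0.246 in the wild-type library. The level of cluster 0 was uneven over its nuclei. Those above 1% mitochondrial UMIs were at 14104 CPM in the knockout and 14081 CPM in the wild-type library. Those above 0 and up to 0.25% were at 2919 and 2782 CPM. Colonocyte-like nuclei of that last kind were at 2618 and 2213 CPM.

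Within cluster 0 nearly the whole set was higher in the knockout library. Of 42 genes with at least 50 counts there, 41 had ratios above 1, 20 were at least 1.5-fold higher and 0 at least 1.5-fold lower, where 6.68% and 6.18% of all 8685 measured genes were that much higher and lower. Complex IV led, with 10 of 11 genes past 1.5-fold and a summed ratio of 1.89. Complex III was at 1.67, complex II at 1.35 and ATP synthase at 1.25. Cox6a1 had 219.9 CPM in knockout and 75.9 CPM in wild-type nuclei, a ratio of 2.90 (2.42 to 3.48), and Cox8a had 268.6 CPM in knockout and 113.8 CPM in wild-type nuclei, a ratio of 2.36 (2.03 to 2.75). Uqcr11 had 102.3 CPM in knockout and 43.1 CPM in wild-type nuclei, a ratio of 2.37 (1.86 to 3.06). Trailing by the upper bound of the interval were Atp5j at 0.986 (0.808 to 1.20) and Atp5a1 at 1.10 (0.952 to 1.26). Nuclei above 1% mitochondrial UMIs were 15.3% of knockout and 4.43% of wild-type nuclei in cluster 0. They held 54.2% of the set's summed counts in the knockout and 26.2% in the wild-type library. Among them the summed ratio was 1.00 (0.952 to 1.05), and in the other nuclei, grouped by mitochondrial share, it ran from 1.05 to 1.44. The part of this uneven share in the ratios of single genes was not tested.

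Within a class, genes are named below as leading by the lower bound of the interval and as trailing by its upper bound, so a gene with few counts and a more extreme ratio may go unnamed. In colonocyte-like nuclei 41 of 43 measured genes had ratios above 1, and 6 were at least 1.5-fold higher and 0 lower, beside 5.84% and 8.04% of all genes. Atp5d had 77.0 CPM in knockout and 45.2 CPM in wild-type nuclei there, a ratio of 1.71 (1.34 to 2.19), and with Sdhb it led by the lower bound. Atp5mpl at 0.879 and Atp5c1 at 0.901 trailed by the upper bound, with intervals that held 1. In goblet-like nuclei 38 of 42 had ratios above 1, and 8 were at least 1.5-fold higher and 0 lower, beside 4.84% and 7.93%. Uqcr11 at 2.05 (1.42 to 3.0) and Cox6a1 at 1.89 (1.41 to 2.55) led, and Atp5f1 at 0.886 and Atp5j2 at 0.927 trailed, with intervals that held 1. The goblet-like class was not uniform: its cluster 7 had a summed ratio of 1.44 and cluster 4 one of 1.13. Among the colonocyte-like clusters, cluster 9 had 1.49, cluster 6 had 1.17 and cluster 8 had 1.10.

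By complex, colonocyte-like nuclei had summed ratios of 1.31 for complex II, 1.33 for complex III, 1.34 for complex IV and 1.23 for ATP synthase, so the complexes lay closer together there than in cluster 0. In goblet-like nuclei the same ratios were 1.27, 1.41, 1.33 and 1.13. To compare nuclei at equal depth, each was thinned to 500 UMIs, which left out no nucleus. Thinned colonocyte-like nuclei held 1.74 ± 1.99 UMIs of the 44 genes in the knockout and 1.38 ± 1.76 in the wild-type library (mean ± SD over nuclei, which are not replicates). Thinned goblet-like nuclei held 1.35 ± 1.47 in the knockout and 1.08 ± 1.13 in the wild-type library, and thinned smooth muscle-like nuclei 0.803 ± 0.957 in the knockout and 0.772 ± 1.11 in the wild-type library.

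Clusters 2 and 1 and the crypt showed smaller or mixed differences. In cluster 2, 6 of 42 genes were at least 1.5-fold higher and 0 lower, beside 7.44% and 5.46% of all genes, with Atp5d at 2.08 (1.43 to 3.1) and Uqcrh at 1.99 (1.52 to 2.62) leading by the lower bound and Sdhb highest by ratio, at 2.35 (1.40 to 4.11). Atp5f1 and Cox7a2l trailed by the upper bound in cluster 2, at 0.844 and 0.747, with intervals that held 1. In cluster 1, 4 of 42 were higher and 0 lower, beside 5.85% and 6.35%. There Sdhb at 2.62 and Uqcrb at 2.05 led by the lower bound, and Atp5f1 at 0.779 (0.617 to 0.984) and Atp5j at 0.721 (0.524 to 0.990) trailed by the upper bound. By ratio alone Atp5g1 was lowest in cluster 1, at 0.689 (0.428 to 1.11). In crypt base and proliferating-like nuclei 1 of 43 genes was higher and 0 lower, beside 3.54% and 4.65%, and that gene was Sdhb. Cox6a1 and Uqcrc1 led by the lower bound there, at 1.39 and 1.40, and Atp5md at 0.782 (0.615 to 0.993) and Atp5f1 at 0.868 (0.747 to 1.01) trailed by the upper bound.

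**Figure D3:**
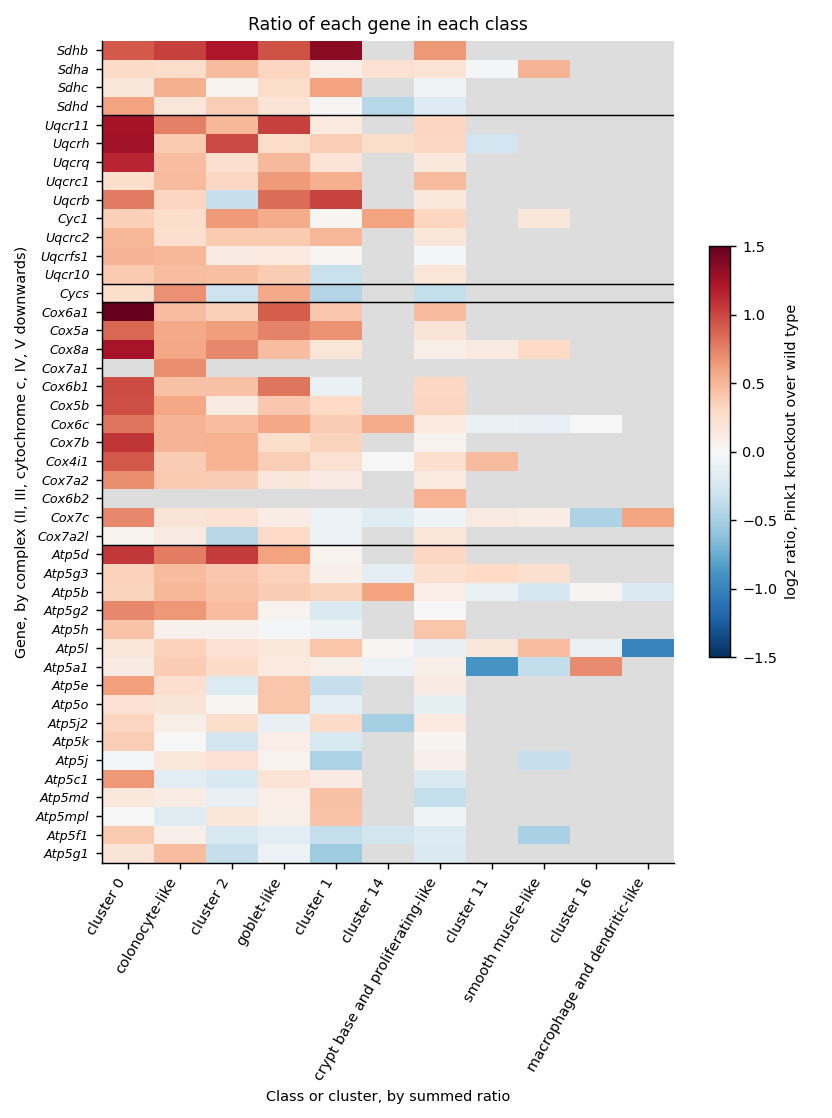
log2 ratio of each of the 44 genes (rows, by complex) in the 11 compared classes and clusters (columns, by summed ratio), Pink1 knockout over wild type, with genes under 50 counts in grey. Complexes III and IV are highest in cluster 0, Sdhb is above 0 in all 6 columns where it is measured, and Atp5f1 is below 0 in 6 of 8.

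Few of the genes could be measured in the other clusters, and their counts per gene were small. In cluster 11, 10 genes were measured, with 0 higher and 1 lower, beside 10.4% and 5.87% of all genes, and the lower one was Atp5a1 at 0.540 (0.343 to 0.852). Atp5b at 0.937 came next by the upper bound, and Cox4i1 and Cox7c led by the lower bound, at 1.42 and 1.10, all with intervals that held 1. In cluster 14, 13 were measured, with 2 higher and 0 lower, beside 7.57% and 6.93%. Those were Atp5b at 1.52 (1.11 to 2.10) and Cyc1 at 1.53 (0.897 to 2.65), and Atp5j2 and Cox7c trailed by the upper bound, at 0.701 and 0.881. In smooth muscle-like nuclei 11 were measured, with 0 higher and 0 lower, beside 8.07% and 5.69%. Atp5l and Sdha led by the lower bound there, at 1.39 and 1.45, and Atp5f1 and Atp5b trailed by the upper bound, at 0.713 and 0.845, and all 4 intervals held 1. In cluster 16, 5 were measured, with 1 higher and 0 lower, beside 12.3% and 6.69%. Atp5a1 at 1.67 was the higher one, Cox6c at 1.01 came next by the lower bound, and Cox7c and Atp5l trailed by the upper bound, at 0.728 and 0.941, all with intervals that held 1. In macrophage and dendritic-like nuclei 3 were measured: Atp5l at 0.501 (0.285 to 0.866), Atp5b at 0.865 and Cox7c at 1.53, so 1 was higher and 1 lower, beside 11.5% and 7.73%.

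Mitochondrially encoded RNA moved with some of these differences and not with others. In cluster 0 it made up 1.39% of UMIs in knockout and 0.460% in wild-type nuclei, in goblet-like cluster 7 it was 0.724% in knockout and 0.270% in wild-type, and in colonocyte-like cluster 9 it was 1.56% in knockout and 0.697% in wild-type. In cluster 16 it was 0.389% in knockout and 0.410% in wild-type nuclei, and in smooth muscle-like nuclei 0.160% in knockout and 0.169% in wild-type. Elsewhere it was higher in the knockout library while the 44 genes differed little. The summed ratio of the mitochondrially encoded genes was 2.08 in cluster 14, where the 44 genes were at 1.09, 1.81 in cluster 1, where they were at 1.10, and 1.62 in crypt base and proliferating-like nuclei, where they were at 1.07. In cluster 2 it was 1.38, with the 44 genes at 1.24. Crypt-like cluster 12 had a mitochondrial share of 0.442% in knockout and 0.163% in wild-type nuclei and a ratio of the 44 genes of 1.11. Cytosolic ribosomal protein genes, whose mRNAs are also abundant in the cytoplasm, summed to 14797 CPM in knockout and 9234 CPM in wild-type nuclei of cluster 0. In smooth muscle-like nuclei they summed to 4129 CPM in knockout and 4994 CPM in wild-type nuclei. The part of cytoplasmic RNA in the ratios of the 44 genes was not tested, and the split that follows is a description only.

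Nuclei were split by their mitochondrial share, a split chosen after the data were seen. In both libraries the few nuclei with much mitochondrial RNA carried a large part of the counts of the 44 genes. Nuclei above 1% were 5.75% of knockout and 3.66% of wild-type nuclei, and they held 26.7% of the summed counts in the knockout and 15.1% in the wild-type library. In them the 44 genes summed to 10976 CPM in knockout and 8951 CPM in wild-type nuclei, a ratio of 1.23 (1.19 to 1.26). In nuclei above 0 and up to 0.25%, the most common kind, they summed to 2429 CPM in knockout and 2316 CPM in wild-type nuclei, a ratio of 1.05 (1.03 to 1.07). The ratios between these bins were 1.08 (0.25 to 0.5%) and 1.07 (0.5 to 1%).

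**Figure D4:**
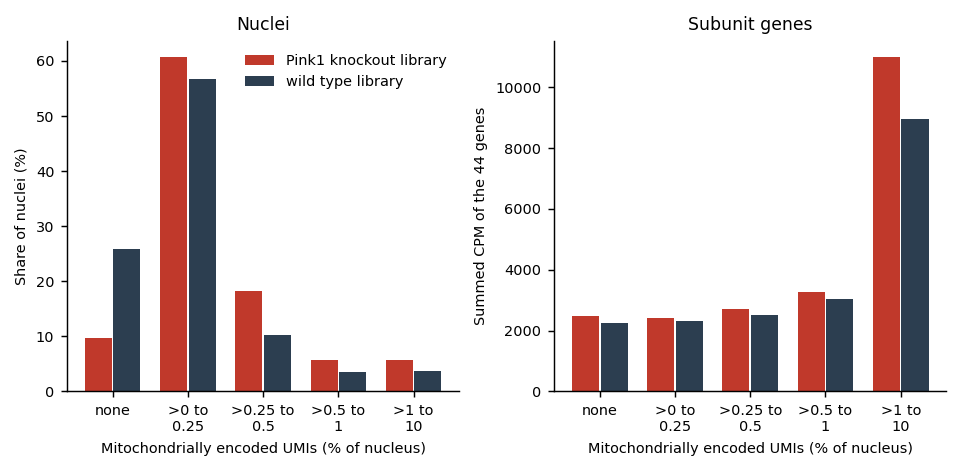
Left, share of nuclei of each library by the percentage of mitochondrially encoded UMIs; right, summed CPM of the 44 genes in the same bins. Nuclei without such a UMI are 9.68% of the knockout and 25.8% of the wild-type library, and the level of the 44 genes is far higher in nuclei above 1%, at 10976 CPM in the knockout and 8951 CPM in the wild-type library.

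Taking all nuclei with at most 1% together, the summed ratio was 1.08 (1.06 to 1.09). There 17 of the 44 genes had intervals above 1, 5 had intervals below 1, and 1, Sdhb, was at least 1.5-fold higher. Cox6a1 was at 1.21 (1.08 to 1.36) and Uqcr11 at 1.16 (1.00 to 1.35) in these nuclei, and at 1.46 (1.27 to 1.68) and 1.64 (1.34 to 2.04) in nuclei above 1%. In cluster 0, nuclei above 1% made up 15.3% of knockout and 4.43% of wild-type nuclei. Within those the 44 genes summed to 14104 CPM in knockout and 14081 CPM in wild-type nuclei, a ratio of 1.00 (0.952 to 1.05). In the other bins of cluster 0 the ratio was 1.19 (1.08 to 1.32) without a mitochondrial UMI, 1.05 (1.00 to 1.10) above 0 and up to 0.25%, 1.14 (1.01 to 1.29) up to 0.5% and 1.44 (1.11 to 1.88) up to 1%. All 4 lay above 1 and below the 1.53 of the whole cluster. In colonocyte-like nuclei the ratio held in most bins, at 1.18 (1.07 to 1.31) without a mitochondrial UMI, 1.18 (1.13 to 1.24) above 0 and up to 0.25% and 1.21 (1.15 to 1.27) above 1%, but it was 0.783 (0.671 to 0.915) between 0.5 and 1%.

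Genes of related function were read beside them from lists that do not hold any of the 44. Over all nuclei the nuclear-encoded complex I subunits summed to a ratio of 1.09 (1.07 to 1.11), with 2 of 37 at least 1.5-fold higher and 0 lower, beside 6.51% and 8.07% of all genes. The citrate cycle enzymes were at 1.14 (1.11 to 1.16), with 0 of 14 past 1.5-fold, and the cytosolic ribosomal protein genes at 1.15 (1.14 to 1.16), with 0 of 87 past it. All 13 mitochondrially encoded genes were at least 1.5-fold higher. The assembly factors of complexes II to V, which build these complexes but are no part of them, were lower, at 863 CPM in knockout and 971 CPM in wild-type nuclei, a ratio of 0.889 (0.869 to 0.909), with 1 of 35 at least 1.5-fold higher and 3 lower, which is near the same background. Their median log2 ratio was −0.17, that of the complex I subunits 0.21 and that of the citrate cycle enzymes 0.16, beside 0.26 for the 44. The nuclear noncoding RNAs Malat1, Neat1, Meg3 and Kcnq1ot1 together were at 1.06.

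**Figure D5:**
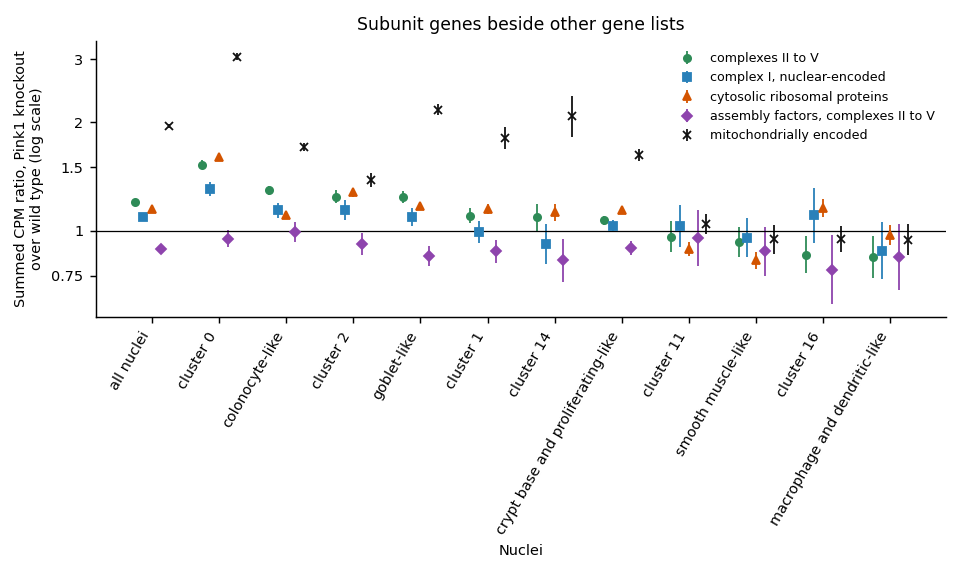
Summed CPM ratio of the 44 genes and of 4 other gene lists, Pink1 knockout over wild type on a log axis, over all nuclei and in each compared class or cluster, with exact 95% intervals for counting error. Mitochondrially encoded genes are at 3.04 in cluster 0 where the 44 genes are at 1.53 and cytosolic ribosomal protein genes at 1.60, and the assembly factors lie below 1 in every column, at 0.991 in colonocyte-like nuclei.

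The ratio of a gene did not follow its length or its level closely. Over the 44 genes the Spearman correlation of the log2 ratio was −0.138 with gene length, −0.312 with exonic length and −0.121 with the wild-type CPM, all as descriptions of these libraries. The genes lie on 19 chromosomes, and none overlaps another listed gene on its own strand. GENCODE names 8 pseudogenes after 5 of them, Atp5c1, Atp5k, Atp5l, Cycs and Uqcrh, whose counts are uncertain where tags match both. Counts were not driven by single nuclei: the largest share of a gene's counts in 1 nucleus was 3.57%, for Cox6b2 in the wild-type library.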

How the data were processed

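UMI counts per gene and barcode were deposited by the authors. Per the file headers they came from Cell Ranger 6.1.2, and the submitters' processing notes name the build as mm10 (GRCm38). The sources used here do not say whether introns were counted or doublets removed beforehand. Barcodes with at least 500 UMIs, 300 genes and at most 10% mitochondrial UMIs were kept. The highest Scrublet scores (0.8% per 1000 barcodes) were removed as doublets, 1180 (9.72%) in the knockout and 632 (7.11%) in the wild-type library. Nuclei of both libraries were clustered jointly in scanpy 1.11.5 (2000 variable genes, 30 principal components, 20 neighbours, Leiden resolution 1) and clusters named from markers, so names may differ from the study's. The class whose markers had the highest mean log2 fold over the other clusters gave the name, if this mean reached 0.3 and 3 markers were at least 2-fold up. Fibroblast-like clusters are given by number, since 1 of them held more markers of another class among its leading genes.

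For each library and class, counts were added up and scaled to CPM over nuclear-encoded genes. Ratios carry exact conditional binomial 95% intervals and counts exact Poisson ones (scipy 1.17.1), and log2 ratios add 0.5 to each count. These steps were checked on simulated counts. Genes needed 20 counts over all nuclei and 50 in a class. With 1 library per genotype nothing was tested. The genes, lists and rules were chosen with earlier results of these data known. Named genes were every qualifying gene over all nuclei, and in each class the 2 highest by the lower and the 2 lowest by the upper bound of the interval. Alternatives changed the filter, doublet removal, depth, scaling, clustering, class weights and count minimum. Gene coordinates are from GENCODE M21 (GRCm38), matched for 32158 of 32285 IDs.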

Additional observations from a re-analysis of the deposited data

Results flagged for a closer look

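The summed ratio of the 44 genes differed between classes of nuclei, and these differences were not tested. It was 1.53 in cluster 0, the highest of the classes and clusters compared. It was 0.857 in cluster 16 and 0.844 in macrophage and dendritic-like nuclei, which lay below 1 with their intervals. The mitochondrially encoded share of UMIs, a measure outside the 44 genes that also served to split the nuclei, was higher in the knockout library, with a ratio of 1.95.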

How the results depend on the processing

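No paired analysis was possible because each genotype had 1 library. Main values are given first. The summed ratio over all nuclei (1.20) was 1.24 with a looser filter, 1.07 with a stricter one, 1.17 after thinning to 500 UMIs per nucleus, 1.22 scaled by the median of ratios and 1.23 with knockout classes weighted to wild-type shares. Of 3 alternatives chosen after the data were seen, it was 1.09 in nuclei without a mitochondrial UMI (1061 or 9.68% of knockout and 2131 or 25.8% of wild-type nuclei), 1.15 without cluster 0 and stayed within its interval without barcodes found in both libraries. The count of genes at least 1.5-fold higher (3) was 7 with the looser filter, 1 with the stricter one and without cluster 0, 6 after thinning and 5 with weighted classes, and none was that much lower under any of these. The median log2 ratio (0.26) was 0.081 with the stricter filter and 0.15 in nuclei without a mitochondrial UMI.

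A class or cluster need not hold the same nuclei under another filter, doublet rule or clustering. By class, the summed ratio under the looser filter was 1.07 in cluster 0 (1.53) and 1.17 in cluster 2 (1.24). It was 1.49 in colonocyte-like nuclei (1.29) and 1.06 in cluster 16 (0.857). Under the stricter filter it was 1.08 in cluster 0, 1.13 in colonocyte-like, 0.987 in macrophage and dendritic-like (0.844) and 1.10 in goblet-like nuclei (1.24). Without doublet removal it was 1.01 in macrophage and dendritic-like nuclei and 1.08 in cluster 16. After thinning it was 1.03 in cluster 1 (1.10), 1.11 in cluster 11 (0.962), 0.969 in cluster 16, 1.35 in cluster 2 and 1.04 in smooth muscle-like nuclei (0.932). At resolution 0.5 it was 1.58 in cluster 0, 1.18 in cluster 2 and 1.11 in crypt base and proliferating-like nuclei (1.07), and with libraries clustered separately 1.23 in colonocyte-like and 1.32 in goblet-like nuclei. In nuclei without a mitochondrial UMI it was 1.19 in clusters 0 and 1, 1.23 in cluster 14 (1.09), 1.21 in cluster 16, 1.17 in cluster 2, 1.18 in colonocyte-like, 0.975 in crypt base and proliferating-like, 1.34 in macrophage and dendritic-like and 1.05 in goblet-like nuclei.

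Of 484 ratios of single genes under alternatives, 416 stayed within their main interval and 56 moved past it. The other 12 crossed 1 although the main interval lay clear of 1. Genes whose main interval held 1 could also cross 1, and these are counted among the 416 or the 56. Examples are Atp5o (main 1.08) at 0.907 with the stricter filter and Atp5e (main 1.08) at 0.670 in nuclei without a mitochondrial UMI. The 12 were Uqcrfs1 (0.971), Cox7c (0.986) and Atp5g2 (0.975) with the stricter filter, Atp5f1 (1.00), Atp5l (0.976) and Atp5a1 (0.971) after thinning, and Cycs (0.782), Uqcrc2 (0.951), Atp5l (0.945), Cox7a2 (0.977), Uqcr11 (0.997) and Cox7c (0.977) in nuclei without a mitochondrial UMI. The cause of these changes was not tested. Depth limits the small classes most: in the macrophage and dendritic-like class 3 of the 44 genes reached 50 counts.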
